A study of Mus musculus with 31 samples.

Results

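The transcripts described here are those of 6 transcription factors that carry the signal of the circadian clock to other genes. They are the PAR bZIP factors Dbp, Tef and Hlf, the bZIP repressor Nfil3, and the bHLH repressors Bhlhe40 and Bhlhe41. Members were the probes that the scanner files name as one of these genes, or whose RefSeq accession now carries that symbol. These were 8 of 55681 probes on the array, and all 6 genes were found. Each gene is given by its probe of highest mean level, and 28 or more of the 29 arrays used had that probe well above background.

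RNA of the whole lung was profiled for 31 mice (C57BL/6, female, 6 weeks old), each on 1 Agilent array with a single dye. Mice of the oleic acid groups had received oleic acid into the tail vein (200 µl, with 1.2 µl of oleic acid for each g of mouse), and mice of the saline groups 200 µl of physiological serum by the same route. All mice were anaesthetised with xylazine and ketamine for the injection, so the controls carried the anaesthetic too, and no uninjected mice were analysed here. The 6 sampling times were 1, 1.5, 3, 4, 18 and 24 h. Each had 3 oleic acid mice, while saline mice numbered 3 at 1 h and 2 per later time. Oleic acid damages the pulmonary endothelium when given into a vein and serves as a model of acute lung injury. The clock hour of injection and of sampling is not given in the sources used here, so time after injection cannot be told apart from time of day.

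The PAR bZIP factors bind a short DNA element, the D-box, as activators, and Nfil3 binds the same element as a repressor. Dbp, Tef and Hlf are driven by the clock activator pair of CLOCK and BMAL1, the product of Arntl, through E-boxes, while Bhlhe40 and Bhlhe41 compete at E-boxes and repress. In mice these transcripts cycle over the day in many tissues, the lung among them, with Nfil3 usually out of phase with the PAR bZIP genes.

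The E-box is shown where it lies close upstream of a member's start, because it is the element through which CLOCK and BMAL1 drive Dbp, Tef and Hlf. The 250 bases before the start were searched on both strands in RefSeq windows of build GRCm38.p6, which exist for 5 of the 6 members and not for Bhlhe40. The E-box CACGTG was present in both windows of Tef and in that of Bhlhe41. It was absent from these 250 bases of Dbp, Hlf and Nfil3. Of all 32851 windows 6.02% held it, and since it reads the same on both strands each match is counted once. The related letters CACGTT (3.85% of windows) and the D-box TTATGNAA (3.07%) were in none of the members' windows. Capitals mark the E-box in the lines that follow, each a stretch of 66 bases on the strand of the gene.
Tef, first start, chr15:81802516-81802581, plus strand: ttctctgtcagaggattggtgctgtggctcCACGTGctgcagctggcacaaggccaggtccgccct
Tef, second start, chr15:81811246-81811311, plus strand: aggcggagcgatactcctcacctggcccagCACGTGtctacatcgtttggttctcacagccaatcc
Bhlhe41, chr6:145865538-145865603, minus strand: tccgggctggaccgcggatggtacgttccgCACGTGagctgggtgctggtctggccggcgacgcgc
The flanks of the 3 matches differ, and no binding was measured in these samples.

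Levels are log2 values of the scanner software's processed signal, set against each array's own 75th percentile, so 1 unit is a factor of 2 and levels of different genes are not set against each other. On 29 arrays the spike-in transcripts gave a slope of signal on amount of 0.937 to 1.06. Replicate 3 of oleic acid 1.5 h (1.66) and replicate 2 of oleic acid 3 h (0.751) were left out for their slopes. Between 51.2% and 82.4% of spots were well above background, and 5 arrays exceeded 70%. The arrays lie on 4 slides that follow the times. Slide 1 holds 1 h with 1 array of 1.5 h, slide 2 holds 1.5 and 3 h, slide 3 holds 4 h, saline 18 h and 1 array of 3 h, and slide 4 holds oleic acid 18 h and 24 h of both treatments. Markers of alveolar type 1 and type 2 cells, airway cells and endothelium were well above background on all 29 arrays, and so were 10 of 10 heart muscle genes. In whole lung, fewer cells of a type and less RNA per cell cannot be told apart. The labels give separate mice, and the number of arrays limits the precision.

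Dbp, a PAR bZIP factor known for a steep daily rhythm in mouse tissues, had the widest range of the 6 members. It ran between 0.55 and 6.00, a factor of 43.6, which is wider than 96.7% of the 29309 features measured. The ranges of the other members were wider than 78.4% (Tef), 70.4% (Hlf), 78.2% (Nfil3), 68.6% (Bhlhe40) and 89.7% (Bhlhe41) of features. The Dbp probe lies at chr7:52965322-52965381 (build mm9, plus strand). At 1 h Dbp stood at 5.78, 6.00 and 5.67 in oleic acid lungs, against 1.13, 1.73 and 5.91 in saline lungs. At 1.5 h it was 1.83 and 3.20 in oleic acid lungs and 2.05 and 2.93 in saline lungs, and at 3 h 4.97 and 5.08, against 4.57 and 4.96. The 1.5 h arrays were thus below the oleic acid arrays of 1 h and below all arrays of 3 h, in different mice. How many of all features lay so was not counted. At 4 h the values were 4.65, 4.36 and 4.96 in oleic acid lungs, against 5.14 and 4.42 in saline lungs. At 18 h they were 1.17, 1.44 and 1.11 in oleic acid lungs and 0.55 and 0.90 in saline lungs, the lowest of the series, and at 24 h 2.50, 2.26 and 5.55, against 2.63 and 2.92. Replicate 3 of oleic acid 24 h lay far above the other arrays of that time, and saline replicate 3 of 1 h lay with the oleic acid arrays of its time and not with the other saline arrays. The labels were used as given, and whether an array of saline 1 h or oleic acid 24 h carries another group's label or was taken at another hour of the day was not tested. Values of these groups are limited by that doubt. A second Dbp probe followed the first over the 29 arrays (r = 0.99).

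Tef, a PAR bZIP factor named for its action on the thyrotropin gene, ran between 3.29 and 6.10, a factor of 7.0. Its probe lies at chr15:81657221-81657280 (mm9, plus strand). Tef stood at 5.26, 5.23 and 5.50 in oleic acid lungs of 1 h, against 3.57, 4.12 and 5.10 in saline lungs, so these groups did not overlap. At 4 h it was 5.29, 5.25 and 5.67 in oleic acid lungs and 6.10 and 5.00 in saline lungs. At 18 h it was 4.22, 3.68 and 3.57 in oleic acid lungs and 3.78 and 3.63 in saline lungs, below every array of 3 and 4 h. The share of all features lying so was not counted. At 1.5 h Tef was 3.29 and 4.13 in oleic acid lungs, overlapping those of 18 h, and 3.88 and 4.44 in saline lungs, above both saline arrays of 18 h. At 3 h values were 4.87 and 5.32 in oleic acid lungs and 4.83 and 5.34 in saline lungs, and at 24 h 3.95, 4.09 and 5.22, against 4.46 on both saline arrays.

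Hlf, the PAR bZIP factor also known from blood stem cells, ran between -0.12 and 2.21, a factor of 5.01, with its probe at chr11:90200696-90200755 (mm9, minus strand). At 1 h Hlf stood at 1.77, 1.43 and 2.02 in oleic acid lungs, against 0.05, 0.52 and 1.49 in saline lungs. At 3 h it was 1.1 and 1.46 in oleic acid lungs and 1.45 and 2.21 in saline lungs, and at 4 h 0.79, 1.54 and 1.61, against 2.01 and 1.5. All 5 arrays of 18 h lay close to 0, with 0.05, 0.02 and 0.17 in oleic acid lungs and -0.02 and 0.01 in saline lungs. The 1.5 h arrays overlapped them, at -0.12 and 0.61 in oleic acid lungs and 0.06 and 0.48 in saline lungs. At 24 h Hlf was 0.41, 0.75 and 1.86 in oleic acid lungs and 1.19 and 0.72 in saline lungs, again with replicate 3 highest.

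Nfil3, the repressor at the D-box and a factor needed for natural killer cells, ran between -1.14 and 1.66, a factor of 6.94. Its probe lies at chr13:53062578-53062637 (mm9, minus strand). Nfil3 stood at -0.68, -1.01 and -0.88 in oleic acid lungs of 1 h, against 0.72, 1.23 and -0.58 in saline lungs. The groups did not overlap, but saline replicate 3 lay only just above the oleic acid arrays. At 1.5 h it was 0.46 and 0.50 in oleic acid lungs and 0.58 and 0.79 in saline lungs, and at 3 h 1.09 and 1.66, against 1.15 and 0.48. At 4 h it was spread, with -0.34, 0.59 and -0.69 in oleic acid lungs and -0.44 and 1.08 in saline lungs. At 18 h it was 0.62, 0.21 and 0.39 in oleic acid lungs, against 0.75 and 0.45 in saline lungs. At 24 h it was 0.33, 0.40 and -1.14, against 0.20 and 0.37, so the array of oleic acid 24 h with high Dbp was the array with the lowest Nfil3.

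Bhlhe40, a repressor that also answers to hypoxia and cytokines, ran between 0.38 and 2.61, a factor of 4.70, with its probe at chr6:108616309-108616368 (mm9, plus strand). At 3 h Bhlhe40 was 2.28 and 2.24 in oleic acid lungs and 1.84 and 2.32 in saline lungs. At 18 h it was 0.38, 0.43 and 0.54 in oleic acid lungs and 0.40 and 0.75 in saline lungs. The groups of 3 h thus lay above those of 18 h, and the share of all features doing so was not counted. At 1 h Bhlhe40 was 1.5, 1.65 and 1.68 in oleic acid lungs and 0.59, 0.76 and 1.76 in saline lungs. At 1.5 h it was 0.92 and 1.19, against 1.08 and 1.72. Saline 4 h was the most divided group, at 1.05 and 2.61, beside 1.16, 2.09 and 1.22 in oleic acid lungs. At 24 h Bhlhe40 was 0.71, 0.59 and 1.63 in oleic acid lungs and 1.25 and 0.77 in saline lungs.

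Bhlhe41, the close relative of Bhlhe40 with a role in sleep length in mice and humans, was dim. It lay between -4.74 and -0.85, at chr6:145811275-145811334 (mm9, minus strand), and was well above background on 28 of 29 arrays, its second probe on 15. The second probe followed the first less closely than for Dbp (r = 0.73 over the 29 arrays). The first read higher than the second by 0.93 to 4.19. At 18 h Bhlhe41 was -4.21, -1.19 and -4.24 in oleic acid lungs and -4.74 and -1.63 in saline lungs, so both groups were split. The higher array of each group was one of the 5 with over 70% of spots above background. At 1 h Bhlhe41 was -2.07, -0.95 and -2.55 in oleic acid lungs and -0.85, -3.73 and -2.12 in saline lungs. The highest array of each treatment at 1 h was also among those 5. At 1.5 h Bhlhe41 was -3.47 and -3.13, against -3.14 and -2.30, and at 3 h -2.44 and -1.80, against -2.41 and -1.50. At 4 h it was -2.99, -2.06 and -2.64, against -2.61 and -1.75, and at 24 h -3.14, -3.23 and -2.76, against -1.51 and -2.98. Over the 29 arrays Bhlhe41 followed that percentage (r = 0.56, permutation p = 0.00134, 0.00804 after Benjamini-Hochberg adjustment over the 6 members; rho = 0.41, permutation p = 0.0277, adjusted 0.166). Without the 2 arrays farthest from the median percentage r was 0.41, and over the 24 arrays under 70% it was 0.09. The relation rests on the arrays over 70%. For the other 5 members r with that percentage lay between -0.36 and 0.00 and the smallest adjusted p was 0.112.

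**Figure D1:**
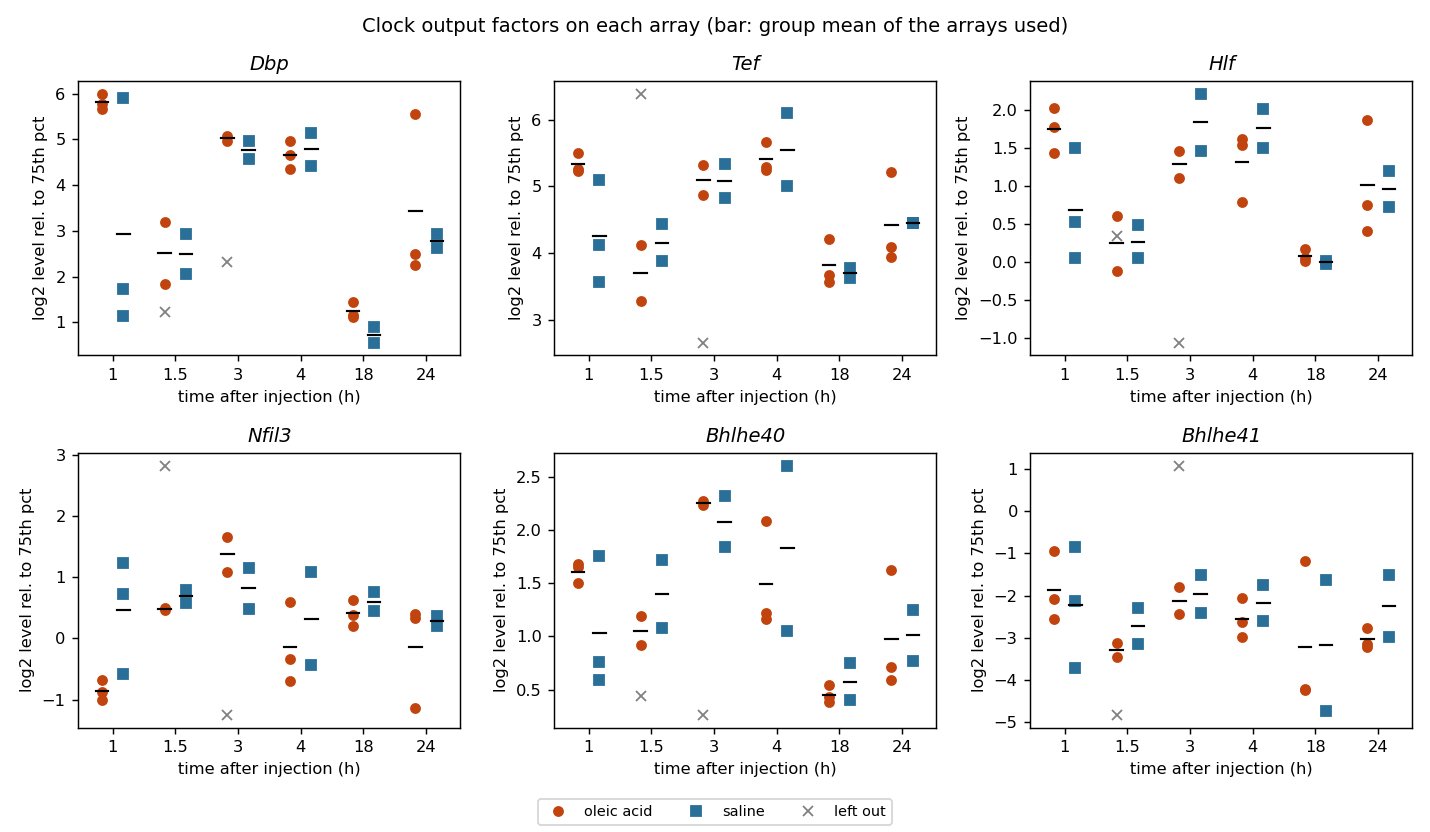
Log2 level relative to the array's 75th percentile (vertical axes) for the 6 members at each time (horizontal axes, not to scale), oleic acid arrays as circles left of saline arrays as squares. Bars are group means, and grey crosses are the 2 arrays left out. Dbp runs between 0.55 at 18 h and 6.00 at 1 h, and replicate 3 of oleic acid 24 h (5.55) and of saline 1 h (5.91) stand apart from their groups in Dbp.

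The order of the 12 group means differed between members, and most neighbours in that order overlapped. For Dbp it ran from oleic acid 1 h (5.81 ± 0.17, SD, n = 3), oleic acid 3 h (5.03 ± 0.08, n = 2) and saline 4 h (4.78 ± 0.51, n = 2) down to oleic acid 18 h (1.24 ± 0.18, n = 3) and saline 18 h (0.73 ± 0.25, n = 2). Of its 11 neighbouring pairs 8 overlapped. Of the 11 pairs, 10 overlapped for Tef and for Hlf, and 11 for Nfil3, Bhlhe40 and Bhlhe41. The order was made from these same means, and the matching counts over all features were not taken, so these counts only describe the members. Saline 18 h was the lowest group for Dbp, Tef and Hlf, and oleic acid 18 h the lowest for Bhlhe40. Oleic acid 1 h was the lowest group for Nfil3 (-0.86 ± 0.16, n = 3) and oleic acid 3 h its highest (1.38 ± 0.40, n = 2).

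Saline lungs of 18 h were compared with those of 4 h because these arrays share a slide. All 3 PAR bZIP factors fell. Dbp was 4.05 log2 units lower at 18 h (a difference of -4.05, 95% interval -6.33 to -1.78, 16.6-fold, adjusted p = 0.0368 in limma). Tef differed by -1.84 (-2.81 to -0.87, 3.59-fold, adjusted p = 0.0270) and Hlf by -1.77 (-2.72 to -0.81, 3.40-fold, adjusted p = 0.0306). Their arrays and those of Bhlhe40 did not overlap between the times, as for 29.2% of features in that direction. The 3 called members compare with 5.4% of all features called, 3.81% of them lower. Bhlhe40 differed by -1.26 (-2.21 to -0.31, adjusted p = 0.111), Bhlhe41 by -1.01 (-3.14 to 1.12, adjusted p = 0.602) and Nfil3 by 0.28 (-0.90 to 1.46, adjusted p = 0.814). With 2 arrays a time these calls rest on single libraries. Without saline 18 h replicate 1 or replicate 2 no member was called, the differences of Dbp being -3.88 and -4.23. Without saline 4 h replicate 1 only Bhlhe40 was called, at -2.04, and without saline 4 h replicate 2, or without saline 1.5 h replicate 1, only Tef. Dbp alone lost its call without oleic acid 1 h replicate 1, oleic acid 3 h replicate 1 or saline 24 h replicate 2, with slide as a fixed term (adjusted p = 0.0511), and as the mean of its probes (adjusted p = 0.0514).

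The other genes of the clock went along with the PAR bZIP factors in part. Of 16 measured core clock genes, 7 were called lower and 0 called higher, and 6 had a difference above 0, at 18 h against 4 h in saline lungs, with a median difference of -0.54 beside -0.04 over all features. Per1, a period repressor, differed by -3.50 (adjusted p = 0.0008), and Cry2, a cryptochrome repressor, by -1.61 (adjusted p = 0.00543). Per3 differed by -2.05 (adjusted p = 0.0115) and Nr1d1, the heme-binding repressor Rev-erb alpha, by -2.49 (adjusted p = 0.0236). Arntl, the clock activator, was at 0.71 and 1.07 at 18 h, against -1.72 and -0.47 at 4 h, a difference of 1.98 (0.62 to 3.35, adjusted p = 0.0805). Of 15 genes listed as clock outputs, 4 were called lower and 1, the ring finger gene Lonrf3, called higher, with a median of -0.20. Of 13 glucocorticoid-induced genes 12 were called lower, with a median of -2.09, among them Klf9 (-2.04), Pdk4 (-3.10) and Mt1 (-2.77), and Per1 and Klf9 stand in that list as well. Of 9 measured neutrophil markers 1 was called lower, with 1 difference above 0 (median -1.26), and of 9 fat cell markers 1 was called higher, with 7 above 0 (median 1.06). The part of these in the result was not tested. Of 15 hypoxia-induced genes 1, the collagen hydroxylase P4ha1, was called higher (0.71) and 0 called lower, with 7 above 0.

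Over all late arrays (18 and 24 h) against all early ones (1 to 4 h), oleic acid lungs had 2 members called, both lower, beside 4.96% of all features (3% lower). Dbp differed by -2.16 (-3.35 to -0.98, 4.48-fold, adjusted p = 0.0322) and Bhlhe40 by -0.89 (-1.39 to -0.40, 1.86-fold, adjusted p = 0.0348). Tef differed by -0.76 (adjusted p = 0.0763), Hlf by -0.60 (0.162), Bhlhe41 by -0.67 (0.555) and Nfil3 by -0.08 (0.940). Of 13 glucocorticoid-induced genes 10 were called lower in the same comparison (median -1.09), and of 13 natural killer and innate lymphoid genes 2 were called higher and 2 lower (median 0.00). Fat cell (median -0.60) and neutrophil markers (median -0.38) had 1 of 9 differences above 0 each, with 0 called. The part of these in the result was not tested. In no member did the late arrays lie wholly to one side of the early ones. Leaving out single arrays gave between 0 and 3 called members, and 16 of the 29 omissions changed the count. Without replicate 3 of oleic acid 24 h the Dbp difference was -2.69 and Tef was called as well, at -0.96. In saline lungs the same comparison called 0 members in limma, beside 2.77% of features (1.42% lower). An unadjusted p under 0.05 was reached by 4 members and by 4353 of 29309 features. There Dbp differed by -1.99 (-3.36 to -0.61, adjusted p = 0.123), Bhlhe40 by -0.80 (0.143), Tef by -0.68 (0.240), Hlf by -0.66 (0.244), Bhlhe41 by -0.44 (0.824) and Nfil3 by -0.13 (0.922). Without saline 4 h replicate 1, Bhlhe40 was called, at -0.99. Early and late oleic acid arrays lie on different slides, so slide and time cannot be told apart there. In saline lungs slide 3 holds both times, with 18 h and 4 h, and the 24 h arrays share no slide with early saline arrays.

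**Figure D2:**
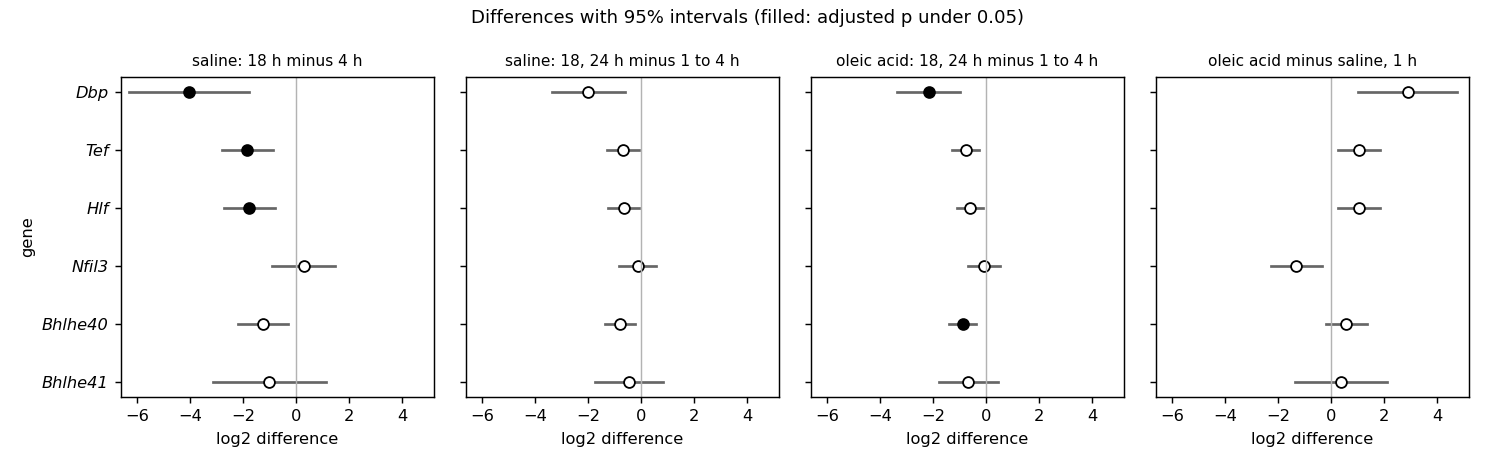
Log2 differences (horizontal axes) of the 6 members (vertical axis) in 4 comparisons, with moderated 95% intervals as lines. Filled points have an adjusted p under 0.05, namely Dbp, Tef and Hlf for saline 18 h minus 4 h, and Dbp and Bhlhe40 for late minus early oleic acid lungs. At 1 h the point of Dbp (2.89) is far to the right and none is filled.

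A test of any difference among the 6 times called Dbp (F = 6.88, adjusted p = 0.0291) and Tef (F = 6.91, adjusted p = 0.0288) in oleic acid lungs, beside 4.41% of features. Hlf had F = 5.53 (adjusted p = 0.0555), Bhlhe40 4.64 (0.0873), Nfil3 4.36 (0.102) and Bhlhe41 0.91 (0.751). The single-array omissions gave between 0 and 3 members, and 19 of 29 changed the count. In saline lungs 0 members passed in limma, beside 4.29% of features, and 4 had an unadjusted p under 0.05, as did 6673 of 29309 features. Hlf had F = 5.58 (adjusted p = 0.0540), Tef 4.21 (0.1), Dbp 3.97 (0.113), Bhlhe40 3.11 (0.178), Bhlhe41 0.40 (0.935) and Nfil3 0.28 (0.969). Without saline 1 h replicate 3 the saline test called Dbp, Tef and Hlf, and without saline 1 h replicate 1, or without oleic acid 24 h replicate 3, Hlf alone. Without oleic acid 24 h replicate 3 and saline 1 h replicates 1 and 2, 5 members passed in oleic acid lungs (Bhlhe41 did not) and Dbp, Tef and Hlf in saline lungs. Leaving out saline 1 h replicate 3 in place of replicates 1 and 2 gave the same members. Both choices of arrays were made after seeing the data. The shares of all features called with them are not given here, so these counts only describe the members.

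Among oleic acid lungs, 24 h was compared with 18 h on the same slide, and 0 members were called in limma, beside 0.0102% of features. An unadjusted p under 0.05 was reached by 2 members and by 642 of 29309 features. Dbp differed by 2.19 (0.33 to 4.05), Hlf by 0.93 (0.15 to 1.71), Tef by 0.60, Bhlhe40 by 0.52 and Nfil3 by -0.54, each with an adjusted p of 1. Dbp, Hlf and Bhlhe40 were higher at 24 h without overlap, as were 4.46% of features. The size rests on replicate 3 of oleic acid 24 h, since without it Dbp differed by 1.14, Hlf by 0.50, Tef by 0.20, Bhlhe40 by 0.20 and Nfil3 by -0.04.

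Oleic acid lungs differed from saline lungs in no member that passed the test at any time. At 1 h, 0 members and 0% of features were called in limma, and 4 members had an unadjusted p under 0.05, as did 1183 of 29309 features. Dbp differed by 2.89 (1.03 to 4.75, unadjusted p = 0.00416), Tef by 1.07 (0.28 to 1.86), Hlf by 1.05 (0.27 to 1.83), Bhlhe40 by 0.58 (-0.20 to 1.35) and Nfil3 by -1.32 (-2.28 to -0.35), each with an adjusted p of 1. Tef was higher and Nfil3 lower without overlap, as were 4.56% of features in either direction. Beside them, 0 of 6 measured erythroid markers had a difference above 0 (median -1.47), as did 1 of 9 neutrophil markers (median -0.27) and 12 of 13 natural killer and innate lymphoid genes (median 0.33), with 0 called in each list. Their part in the result was not tested. The saline group decides these values. Without saline 1 h replicate 3 the Dbp difference was 4.38 (adjusted p = 0.0398), and without saline replicates 1 and 2 it was -0.09. At that time Per2, a period repressor, differed by 1.65 and Arntl by -1.30, also with an adjusted p of 1.

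At the later times 4 of 30 member comparisons had oleic acid and saline arrays that did not overlap. At 1.5 h 1 member, Nfil3, was lower, beside 26% of features not overlapping in either direction (15.2% lower). At 3 h 1 member, Dbp, was higher, beside 35.4% (17.4% higher), and at 4 h 0 members stood apart, beside 22.6% (8.39% higher, 14.2% lower). At 18 h 2 members, Dbp and Hlf, were higher, beside 11.9% (5.21% higher, 6.74% lower), and at 24 h 0 members stood apart, beside 21.4% (6.13% higher, 15.2% lower). These directions turned under some settings, for Nfil3 at 1.5 h in 2 of 16 (up to 0.57), for Dbp at 3 h in 2 of 16 (down to -0.64) and for Hlf at 18 h in 1 of 15 (down to -0.13). In limma 0 members were called and 0 had an unadjusted p under 0.05, beside 0.00341% of features called at 1.5 h, 0% at 3 h, 0.00341% at 4 h, 0.0239% at 18 h and 0.0136% at 24 h. For 18 h the oleic acid arrays lie on another slide than the saline arrays, and slide and treatment cannot be told apart. As a mean over 1 to 4 h Dbp differed by 0.76 (-0.30 to 1.83) and Nfil3 by -0.36 (-0.91 to 0.19), with 0 members called beside 0.00341% of features. Over 18 and 24 h Dbp differed by 0.59 (-0.88 to 2.06) and Nfil3 by -0.31 (-1.07 to 0.46), with 0 members called beside 0.0171% of features. Without oleic acid 24 h replicate 3 the late differences were 0.06 for Dbp and -0.06 for Nfil3. The difference between the late and the early oleic acid effect (0% of features) and the test of any change of that effect over the times (0.00682%) called 0 members, with 0 at an unadjusted p under 0.05. The intervals leave room for a Dbp difference of up to 1.83 log2 units early and 2.06 late.

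How the PAR bZIP factors ran against Nfil3 was read array by array. Dbp fell into 2 sets of arrays, 15 at 3.20 or below and 14 at 4.36 or above, and Nfil3 into 8 arrays at -0.34 or below and 21 at 0.20 or above. All 15 arrays with low Dbp were among the 21 with higher Nfil3. Of the 14 arrays with high Dbp, 8 had low Nfil3, which were the 3 of oleic acid 1 h, replicates 1 and 3 of oleic acid 4 h, replicate 3 of oleic acid 24 h, replicate 3 of saline 1 h and replicate 1 of saline 4 h. The other 6 had high Dbp with higher Nfil3, namely all 4 arrays of 3 h, oleic acid 4 h replicate 2 and saline 4 h replicate 2. Low Dbp with low Nfil3 occurred on 0 of 29 arrays. The high set of Dbp held 9 oleic acid and 5 saline arrays and the low set 7 and 8. Since the arrays fall into such sets, no correlation over all 29 is given for these pairs. Its sign was negative for Dbp, Tef and Hlf, opposite to that over the 21 arrays with higher Nfil3. The sign was also negative within saline and within oleic acid arrays, which each hold both sets of Dbp. There no permutation p of these pairs was under 0.05. Without the 2 arrays farthest in Nfil3 it turned positive in saline and stayed negative in oleic acid arrays.

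**Figure D3:**
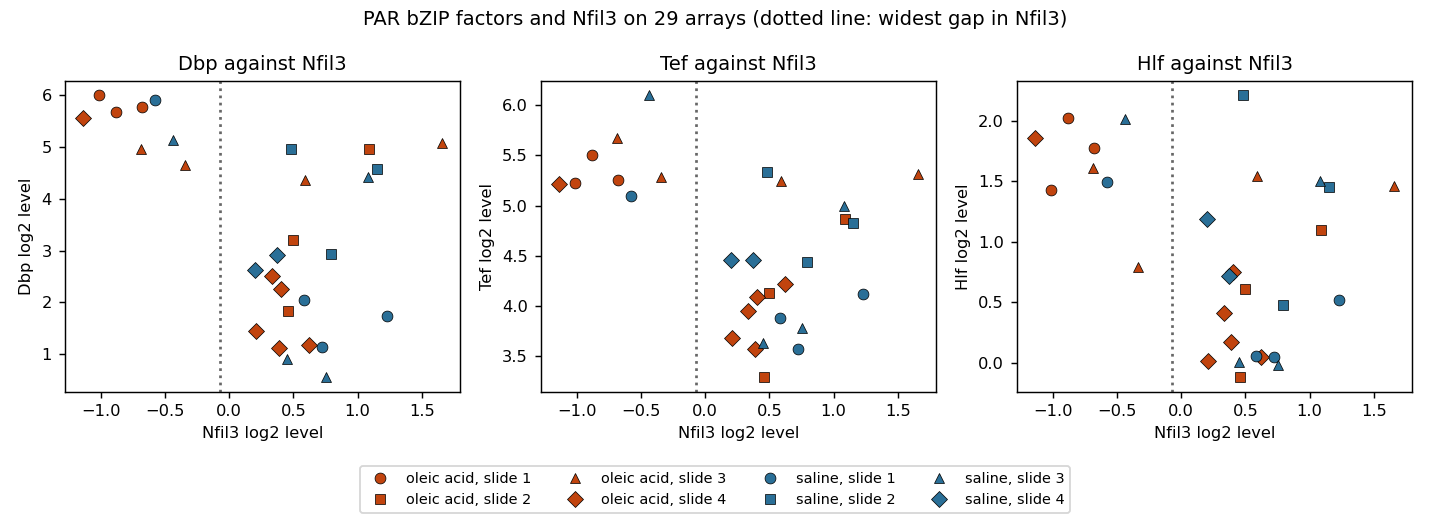
Dbp, Tef and Hlf (vertical axes) against Nfil3 (horizontal axes) on 29 arrays, all as log2 level relative to the array's 75th percentile, with colour for treatment and shape for slide. Left of the dotted line, in the gap between -0.34 and 0.20, the 8 arrays have Dbp above 4.36, and right of it 15 arrays have Dbp of 3.20 or below and 6 have it at 4.36 or above.

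Within sets the direction was mixed. Each set was tested over 15 pairs of members, and p-values were adjusted over those pairs by the Benjamini-Hochberg method. Arrays of a group share their time and treatment, so these permutation p-values take as independent what is partly grouped. Over the 14 arrays with high Dbp, Dbp and Nfil3 ran opposite (r = -0.68, permutation p = 0.00972, adjusted 0.0714; rho = -0.63, permutation p = 0.0194, adjusted 0.112; r = -0.74 without the 2 arrays farthest in Nfil3), which misses the threshold after adjustment. Over the 15 arrays with low Dbp r was -0.20 (permutation p = 0.481, adjusted 0.75; rho = -0.20, permutation p = 0.472). Over the 21 arrays with higher Nfil3, a set cut on Nfil3 itself that holds both sets of Dbp, the sign was positive, with r = 0.48 for Dbp (permutation p = 0.0284, adjusted 0.0473; rho = 0.34, permutation p = 0.130), 0.49 for Tef (p = 0.0233, adjusted 0.0436; rho = 0.39) and 0.35 for Hlf (p = 0.126, adjusted 0.135; rho = 0.25). Without the 2 farthest arrays these were 0.47, 0.42 and 0.29. Without oleic acid 3 h replicate 3 alone the r of Dbp was 0.34 (permutation p = 0.131) and that of Tef 0.35 (permutation p = 0.127). The cut took out every array with high Dbp and low Nfil3, and the permutation does not allow for that. No direction is therefore read from the 21 arrays. Over the 8 arrays with low Nfil3, r was -0.60 for Dbp (exact permutation p = 0.116, adjusted 0.349; rho = -0.43).

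The slides differed as well. On slide 1, which holds 7 arrays of 1 and 1.5 h, r with Nfil3 was -0.96 for Dbp (exact permutation p = 0.0117, adjusted 0.0293; rho = -0.82), -0.91 for Tef (adjusted 0.0331) and -0.88 for Hlf (adjusted 0.0360). By rank the adjusted exact permutation p was 0.144 for Dbp, 0.144 for Tef and 0.205 for Hlf, which misses the threshold. These arrays fall into the high and the low set of Dbp, and every high one had low Nfil3. So r on slide 1 compares those sets, and the saline 1 h arrays, whose labels were used as given, lie in both. On slide 2 (6 arrays) r was 0.53 for Dbp (exact permutation p = 0.279), and on slide 3 (8 arrays) -0.20 (exact permutation p = 0.640). On slide 4 (8 arrays) it was -0.90 (exact permutation p = 0.0233, adjusted 0.0389; rho = -0.67), but -0.01 without the 2 arrays farthest in Nfil3, so it rests on them. Taken as deviations from the group means, which removes time and treatment, Dbp and Nfil3 had r = -0.76 over 29 arrays (permutation within groups p = 0.0122, adjusted 0.0459; rho = -0.71). For Tef it was -0.68 (adjusted 0.115) and for Hlf -0.59 (adjusted 0.115). Without the 6 arrays of saline 1 h and oleic acid 24 h these were -0.44, -0.42 and -0.19.

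Dbp, Tef and Hlf ran with one another in the low set of Dbp, with r = 0.65 for Dbp and Tef (permutation p = 0.00933, adjusted 0.0350), 0.73 for Dbp and Hlf (p = 0.00217, adjusted 0.0108) and 0.78 for Tef and Hlf (p = 0.00051, adjusted 0.00765). In the high set the same pairs had 0.16, 0.30 and 0.49, with adjusted p of 0.640, 0.576 and 0.232. Bhlhe40 ran with Dbp in the low set (r = 0.72, adjusted p = 0.0108) and, in the high set, with Nfil3 (r = 0.73, permutation p = 0.00424, adjusted 0.0636), short of the threshold. In that high set Bhlhe40 and Tef had r = -0.63 (permutation p = 0.0143, adjusted 0.0714).

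For each member the features of most similar course were sought among 16463 named ones over the 29 arrays, as a description. The value pools the sets of arrays described for Dbp, and all points share their arrays and scaling. Tspan4, a tetraspanin listed among clock outputs, was most like Dbp (r = 0.95, and 0.83 and 0.77 within the high and the low set of Dbp). Tef and Hlf followed (0.91 each), then Tex11 (0.90) and Tcap (0.88). Arntl was most opposite to Dbp (-0.90, and -0.88 and -0.36 within the high and the low set), to Tef (-0.88) and to Hlf (-0.90). It ran between -1.85 on oleic acid 1 h replicate 3 and 1.07 on saline 18 h replicate 2. The secreted matrix protein gene Spon2 was second in opposition for all 3 PAR bZIP factors (-0.85, -0.87 and -0.77). The nearest to Tef was Tex11 (0.95), and the nearest to Hlf was Per3 (0.93, and 0.75 in both sets).

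Nfil3 had a single close companion. Adm, which encodes the vasodilator peptide adrenomedullin and is induced by hypoxia, had r = 0.90 with it (0.94 within the high and 0.48 within the low set of Dbp). It was lowest (-1.64) in replicate 3 of oleic acid 24 h and highest (1.16) in replicate 3 of oleic acid 3 h, the same arrays that were lowest and highest in Nfil3. The next was Dusp10, a phosphatase of stress kinases, at 0.73, and the most opposite was Pusl1 at -0.75. Bhlhe40 was most like the tubulin gene Tubb6 (0.87), the pseudokinase gene Trib1 (0.86) and Nr1d1 (0.85), with Nupr1 most opposite (-0.80). Bhlhe41 was most like Pld6 (0.88) and its opposites reached only -0.69 (Zfp397).

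**Figure D4:**
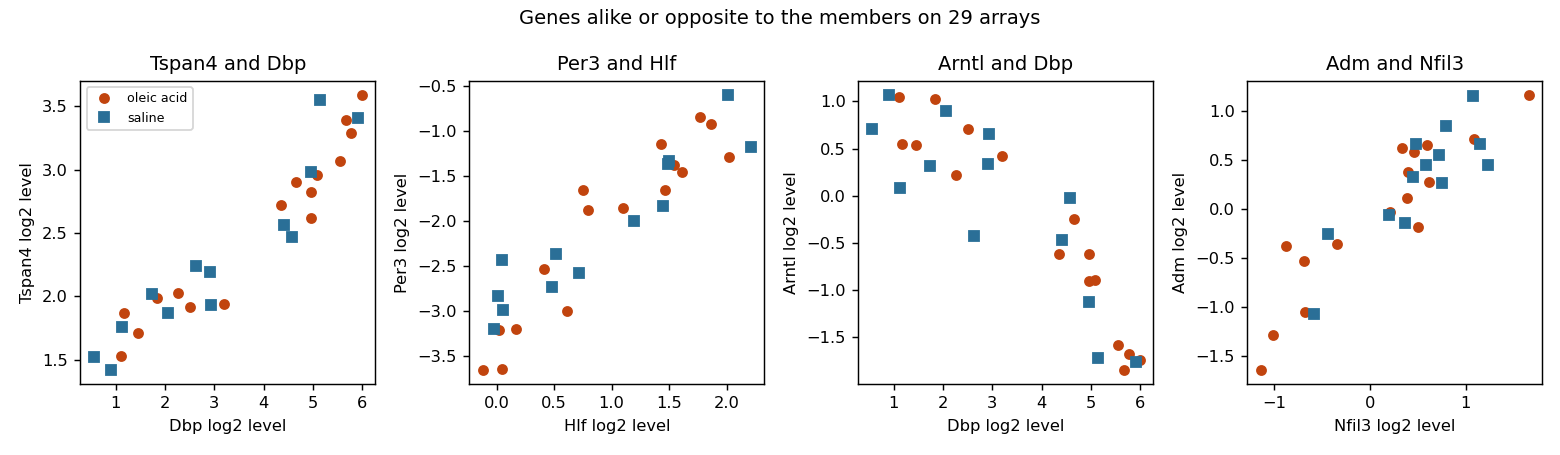
Log2 levels of a gene (vertical axes) against a member (horizontal axes) on 29 arrays, oleic acid as circles and saline as squares. Tspan4 rises with Dbp (r = 0.95) and Per3 with Hlf (0.93), Arntl falls as Dbp rises (-0.90), and Adm rises with Nfil3 (0.90). Oleic acid and saline arrays share each band.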

How the data were processed

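RNA (200 ng) from each lung was labelled with Cy3, per the labels' protocols, and array images were quantified in Feature Extraction (Agilent, version 10.5.1.1), per the submitters' processing notes. Each scanner file holds an intensity per spot, per the file headers, with the processed signal already corrected for background by the software. The authors' deposited value table is on the log2 scale. Sorted, its columns lie within 0.0179 of each other, and its background treatment is not given in the sources used here.

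From the scanner files, log2 of the processed signal minus the array's 75th percentile was taken for 59305 spots that are not controls, without spots flagged as outliers, and spots of a probe were averaged. A probe was kept where all arrays of some group had it well above background. Each gene was given by its kept probe of highest mean, which left 29309 features, 16673 of them named. Current symbols came through RefSeq accessions (26582 probes) or the file's symbol (3094), and 26005 probes had none. With limma 3.58.1 (statmod 1.5.0) in R 4.3.3, files being read by data.table (release 1.17.8), the means of 12 groups were fitted to 29 arrays with empirical Bayes moderation. P-values were adjusted over all features by the Benjamini-Hochberg method, with a threshold of 0.05, and intervals are 95% intervals. Correlations used exact permutation under 10 arrays and 100000 resamples otherwise. The fit was tested on simulated data.

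The members, the lists of clock, glucocorticoid, hypoxia and cell type genes, and the comparisons were chosen with earlier results of these data known. Named genes are the members, up to 4 list genes of smallest p in a comparison or given as not passing, and the 5 features of highest and the 5 of lowest r with a member. Alternatives were the deposited table, normexp (offset 50), median centring or quantile normalization, another filter or probe summary, outlier spots retained, a slide term (random or fixed), a replicate block, other sets of arrays, a threshold of 0.01 and the omission of each array. Promoter letters and positions come from RefSeq tables of build GRCm38.p6, and probe positions from the scanner files (mm9). No annotation of mm9 was used here, so exon or UTR is not given for the probes.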

Additional observations from a re-analysis of the deposited data

Results flagged for a closer look

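The 2 arrays left out for their spike-in slope are data outside the comparisons. On them 3 of 12 member values lay above the highest saline array of the same time. How many of all features lay above or below the saline arrays there was not counted, so these values only describe the members. On oleic acid 1.5 h replicate 3 Tef was at 6.39, against 4.44 on the highest saline array of 1.5 h, and Nfil3 was at 2.82, against 0.79. On oleic acid 3 h replicate 2 Bhlhe41 was at 1.09, against -1.50 on the highest saline array of 3 h. The first of these arrays had a slope of 1.66 and 15585 outlier spots, and the second had a slope of 0.751 and 99.6% of spots well above background. The part of these in the values was not tested. On the same arrays Dbp (1.23 and 2.32) and Bhlhe40 (0.44 and 0.26) lay below every saline array of their times. So did Tef (2.66), Hlf (-1.06) and Nfil3 (-1.25) on oleic acid 3 h replicate 2, and Bhlhe41 (-4.84) on oleic acid 1.5 h replicate 3. The second Dbp probe did not lie so on oleic acid 1.5 h replicate 3. It was at 2.34 there, between the saline arrays of 1.5 h (1.68 and 2.46). Groups of 2 or 3 arrays are too small for a test of single outlying arrays.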

How the results depend on the processing

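The results followed for single members under the alternatives were differences, F tests and correlations with Nfil3. Of these, 621 kept their side of the threshold, and their direction where they have one. Most results followed had not passed in the main fit, so keeping their side mostly meant staying short of the threshold. A further 43 lost and 38 gained a call, or for correlations an unadjusted permutation p under 0.05, and 10 changed sign. Treatment differences at single times after 1 h were not in this count. Dbp, Tef and Hlf stayed lower in saline lungs of 18 h than of 4 h under every alternative that was run, while their calls did not hold. The 3 members called there became 0 with quantile normalization, median centring, no filter on dim probes, all 31 arrays, 24 arrays (without the 5 over 70% of spots above background) or an adjusted p under 0.01, and 1 with the deposited table. The 2 called in late against early oleic acid lungs became 0 under those same settings other than the deposited table, and 4 with either 26 arrays (without oleic acid 24 h replicate 3 and saline 1 h replicates 1 and 2) or 27 arrays (without oleic acid 24 h replicate 3 and saline 1 h replicate 3), both chosen after seeing the data. The 2 called over the 6 times in oleic acid lungs became 0 with median centring, no filter, 31 arrays, 24 arrays or the stricter threshold, 1 with quantile normalization, 4 with slide as a random block (consensus correlation -0.0481) and 5 with 26 or 27 arrays. The 0 called over the 6 times in saline lungs became 1 (Hlf) with a filter on all 29 arrays, slide as a random block or the replicate block, 2 without saline 1 h replicates 1 and 2, and 3 with 26 or 27 arrays. The 0 of late against early saline lungs became 1 without saline 1 h replicates 1 and 2, 3 with 26 arrays and 1 with 27 arrays, and 27 arrays gave 1 call (Dbp) at 1 h, where the difference was 4.38, and 1 for the change of the oleic acid effect over the times. The cause was not tested, except that 24 arrays are fewer samples. Shares of all features called with 26 or 27 arrays are not given here, so those counts only describe the members.

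Beside the treatment differences at single times given in the report, differences that changed sign were Nfil3 in saline 18 h against 4 h (-0.18 with median centring), Nfil3 late against early in saline (0.01 with 24 arrays, 0.13 without saline 1 h replicates 1 and 2 or with 26 arrays) and in oleic acid lungs (0.17 with 26 or 27 arrays), and Dbp (-0.09) and Bhlhe40 (-0.15) at 1 h without saline 1 h replicates 1 and 2, also with 26 arrays. For the 21 arrays with higher Nfil3, a set cut on Nfil3 itself, r of Dbp was 0.43 with quantile normalization or the deposited table, 0.13 with 31 arrays and 0.45 with 24 arrays. For Tef it was 0.46 with 24 arrays, and these did not pass an unadjusted threshold of 0.05 in the permutation test. For Hlf it was 0.67 with median centring, which passed.

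Omitting single arrays, members called ranged from 0 to 3 in saline 18 h against 4 h, late against early oleic acid lungs, and both tests over the 6 times, and from 0 to 1 at 1 h and in late against early saline lungs. In late against early oleic acid lungs 0 members were called without any one array of oleic acid 18 h, oleic acid 1 h replicate 1, oleic acid 1.5 h replicate 2, oleic acid 3 h replicate 1 or 3, oleic acid 24 h replicate 1 or 2, saline 1.5 h replicate 1 or saline 18 h replicate 1. Over the 6 times in oleic acid lungs 0 were called without oleic acid 1 h replicate 1, 1.5 h replicate 1, 4 h replicate 1, 18 h replicate 2 or 3, saline 1.5 h replicate 1 or saline 18 h replicate 1. The r values ranged from 0.34 to 0.57 for Dbp, 0.35 to 0.58 for Tef and 0.24 to 0.48 for Hlf. Sign also turned for Nfil3 in late against early saline (-0.32 to 0.06) and oleic acid lungs (-0.21 to 0.17) and in saline 18 h against 4 h (-0.48 to 1.04), and for Bhlhe41 in late against early saline (-1.22 to 0.33) and in saline 18 h against 4 h (-2.56 to 0.55).

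Features called in saline 18 h against 4 h numbered 1582, and 732 with quantile normalization, 42 with median centring, 961 with the deposited table, 586 with no filter, 611 with 24 arrays and 24 with 31 arrays. Median centring moved the median of all features there from -0.035 to -0.501. Deviations of same-numbered arrays had a median correlation of 0.0237 and a lowest of -0.766, and those of other numbers a median of -0.000986. With groups of 2 or 3 arrays this cannot decide whether replicate numbers pair the mice. The replicate block called 3 members in saline 18 h against 4 h and 3 in late against early oleic acid lungs. With slide as a fixed term 8 of the comparisons could not be fitted, and Dbp lost its call in saline 18 h against 4 h, as it did with the mean over a gene's probes. Bhlhe41 is limited by dim signal, and groups of 2 or 3 arrays limit every other value.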
